A study of Macaca mulatta with 8 samples.

Results

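The youngest and the oldest cortex cultures of the series, E50 and E85, were compared by the genome regions in which their open chromatin peaks lay. The members are 11080 autosomal regions that hold a peak of 1 of these stages and not of the other, out of 69716 autosomal regions with a peak of any stage and 72358 on all sequences. Of them, 657 hold an E50 and no E85 peak (here E50-only) and 10423 hold an E85 and no E50 peak (E85-only), and the 17534 regions that hold both serve as the background. The members were chosen by the calls themselves, read from the stage code inside each deposited peak name, so these counts describe the choice and support nothing by themselves.

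Bulk ATAC-seq, in which the transposase Tn5 cuts accessible DNA, was done by the Omni-ATAC protocol on cells of rhesus macaque cortex at post-conceptional days 50, 60, 80 and 85. At every stage, frozen tissue was thawed, dissociated and grown on laminin in a medium with FGF2, EGF and BDNF that favours progenitors, so what was measured is a culture and not the tissue. There was 1 culture per stage with 2 technical libraries from it. The regions are merged peaks with no score, depth per library was not used here, and no comparison has a replicate check: the exact Clopper-Pearson 95% intervals below cover counting error over regions, and compare these peak sets, not ages.

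Radial glia are the neural stem cells of the developing cortex. They first make deep-layer neurons, later upper-layer neurons and finally glia, and the set of distal enhancers that is open in them changes over this time while most housekeeping promoters stay open. Among the proteins that bind such sites, basic helix-loop-helix factors such as neurogenins recognise E-boxes, AP-1 dimers of FOS and JUN respond to growth factors, and CTCF marks boundaries and anchors of chromatin loops.

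Distal regions are shown first, because the motif results below rest on them. Each stretch has up to 151 bases around the match, within the region, on the plus strand of rheMac10, and overlaps no annotated exon. The capitals mark the E-box CAGCTG in 3 E50-only regions, which were called at E60 and E80 as well. They lie in an intron of IGF2BP2 (chr2:91135201-91135351), in an intron of CHSY3 (chr6:127426620-127426770) and upstream of ALOX5AP (chr17:9789740-9789890).
IGF2BP2: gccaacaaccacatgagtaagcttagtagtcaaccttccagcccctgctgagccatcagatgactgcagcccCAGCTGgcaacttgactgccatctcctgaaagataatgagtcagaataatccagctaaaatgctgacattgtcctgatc
CHSY3: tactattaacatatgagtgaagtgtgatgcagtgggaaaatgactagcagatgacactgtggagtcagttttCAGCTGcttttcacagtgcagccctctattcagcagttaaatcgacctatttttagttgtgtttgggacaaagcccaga
ALOX5AP: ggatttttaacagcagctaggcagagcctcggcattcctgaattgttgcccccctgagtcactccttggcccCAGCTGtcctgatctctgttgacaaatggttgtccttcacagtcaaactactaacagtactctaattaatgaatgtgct

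The capitals mark the AP-1 motif TGANTCA, where N is any base, in 4 E85-only regions. All lie in introns, of PDE4D (chr6:58192533-58192683), KAZN (chr1:210929548-210929626), PRDM16 (chr1:221243344-221243494) and KIAA1217 (chr9:25504977-25505127). The PDE4D region was called at no other stage, the KAZN region also at E80, and the regions in PRDM16 and KIAA1217 at both E60 and E80. The E50-only stretches of IGF2BP2 and ALOX5AP above also hold a match to this motif, TGAGTCA, left there in lower case.
PDE4D: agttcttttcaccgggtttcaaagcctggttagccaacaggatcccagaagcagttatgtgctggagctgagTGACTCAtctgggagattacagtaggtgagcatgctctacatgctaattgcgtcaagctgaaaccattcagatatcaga
KAZN: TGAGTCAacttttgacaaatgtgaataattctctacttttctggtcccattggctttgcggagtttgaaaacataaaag
PRDM16: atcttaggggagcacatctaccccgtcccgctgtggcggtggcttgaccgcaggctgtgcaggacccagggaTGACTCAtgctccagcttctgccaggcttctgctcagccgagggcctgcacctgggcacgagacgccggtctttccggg
KIAA1217: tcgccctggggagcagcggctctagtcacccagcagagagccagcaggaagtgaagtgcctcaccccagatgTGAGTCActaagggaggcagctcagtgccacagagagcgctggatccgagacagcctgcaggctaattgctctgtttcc

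The CTCF motif is in capitals in E85-only regions in introns of NR6A1 (chr15:16060288-16060438) and MYLK (chr2:152590485-152590635), both also called at E60 and E80. They were chosen after the shares were seen.
NR6A1: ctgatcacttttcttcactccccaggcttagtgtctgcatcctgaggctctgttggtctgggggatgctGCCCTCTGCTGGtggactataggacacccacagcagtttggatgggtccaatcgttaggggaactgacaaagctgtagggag
MYLK: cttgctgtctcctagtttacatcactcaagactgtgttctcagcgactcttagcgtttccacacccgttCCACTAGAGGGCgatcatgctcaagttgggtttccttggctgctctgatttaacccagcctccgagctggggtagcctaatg

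The promoters of FEZF2 and GSX2 were called at E50 and not at E85. The 200 bases before the first annotated start of each gene lie inside the E50-only region and overlap no annotated exon, FEZF2 at chr2:118539315-118539514 and GSX2 at chr5:79538305-79538504, both on the minus strand. The E-box CAGCTG, the homeobox motif TAATTA and the KLF/SP motif GGGCGG were searched on both strands. Only the last was found, once in each, and it is in capitals. It is in 41.4% of such stretches before 19838 protein-coding genes (exact 95% interval 40.7 to 42.1), CAGCTG in 9.89% and TAATTA in 3.31%.
FEZF2: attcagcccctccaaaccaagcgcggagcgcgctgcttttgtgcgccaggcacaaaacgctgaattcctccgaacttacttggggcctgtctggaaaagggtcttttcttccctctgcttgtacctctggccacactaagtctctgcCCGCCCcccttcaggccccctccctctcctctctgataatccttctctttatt
GSX2: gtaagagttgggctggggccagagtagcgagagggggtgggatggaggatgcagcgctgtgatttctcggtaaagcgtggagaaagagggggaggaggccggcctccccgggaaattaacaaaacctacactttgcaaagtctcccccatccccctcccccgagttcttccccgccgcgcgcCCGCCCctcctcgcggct

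The E85 set was 1.54 times the E50 set, with 27957 against 18191 autosomal regions. E85-only regions were 36.4% of the 28614 regions called at E50 or E85, and E50-only regions were 2.30% of them. Together they made 38.7%. Seen from each set, 37.3% of the E85 regions and 3.61% of the E50 regions lacked the other call. At least 9766 E85-only regions follow from the set sizes alone, which is 93.7% of those found. The E50 set was nearly contained in every other set: 94.4% of its regions were called at E60, 94.8% at E80 and 96.4% at E85. The sets at E60 and E80, with 57729 and 56172 regions, were both larger than the E85 set.

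The peak names bear on how an absent call can be read. They carry a running number, and at all 4 stages the numbers follow the order of the genome without exception. On the autosomes, 11.9% of the E50 numbers and 10.4% of the E85 numbers are absent from the table. For each region without an E85 call, it could thus be seen whether a number was absent between the nearest E85 peaks on either side. Such a gap stood beside 280 of the 657 E50-only regions, 42.6% (exact 95% interval 38.8 to 46.5), and beside 13.6% of the 41102 regions called at neither E50 nor E85. It was most frequent at promoters, regions within 1000 bp of a transcription start, where it stood beside 124 of 160 E50-only regions (77.5%, 70.2 to 83.7). At distal regions, which here are all others, it stood beside 156 of 497 (31.4%). For E85-only regions, an absent E50 number stood beside 15.9%, 21.3% of promoters and 14.3% of distal regions.

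**Figure D1:**
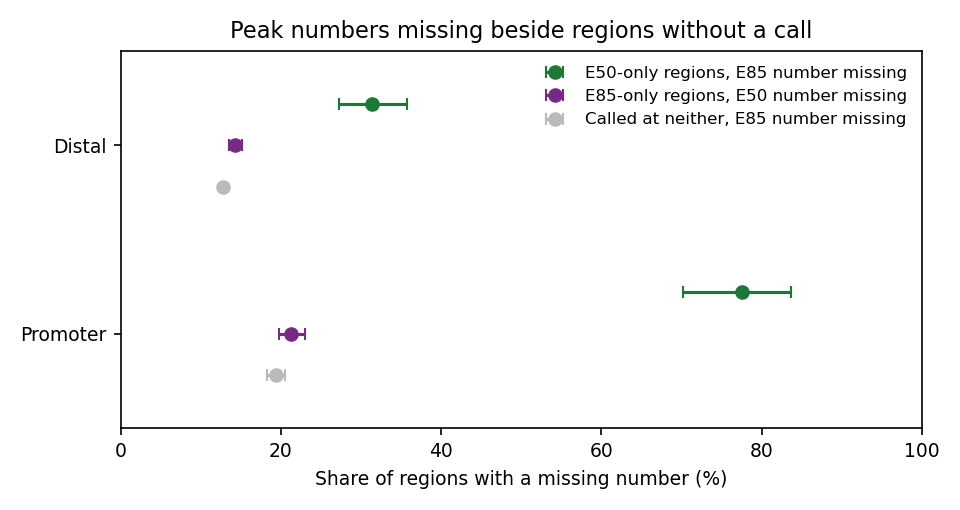
Share of regions (%, x axis) beside which a number of the absent stage is missing from the peak names, for distal regions and promoters (y axis), with exact 95% intervals. E50-only promoters stand at 77.5%, while the other points lie between 12.8% and 31.4%.

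Of 75 E50-only promoters that were called at neither E60 nor E80, 71 had an absent number at each of E60, E80 and E85. Whether a peak at the region itself was taken out there, or another one in the same interval, cannot be told apart, and the filter that the peak names mention is not described in the sources used here. Results are therefore given for all members and for those with unbroken numbering, that is, with no number of the absent stage missing there: 375 E50-only regions (2.06% of the E50 set) and 8748 E85-only regions (31.3% of the E85 set). E50-only regions made 4.11% of these 9123 regions (3.71 to 4.54). Over all members they made 5.93%, from 4.13% on chromosome 5 to 7.41% on chromosome 3. With unbroken numbering chromosome 19 had the lowest share, 1.27% (5 of 395, 0.412 to 2.93), and over all its members it had 5.59% (27 of 483).

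Calls at E60 and E80 were not used to choose the members. Most E85-only regions were called in both of these cultures, 8387 of 10423 or 80.5% (79.7 to 81.2), against 94.1% of the regions called at E50 and E85. E50-only regions were called in both cultures in 51.6% of cases (339 of 657, 47.7 to 55.5), and in 64.8% (59.7 to 69.6) with unbroken numbering. At neither E60 nor E80 were 31.5% of the E50-only regions, 17.9% (14.1 to 22.1) with unbroken numbering, and 8.75% of the E85-only ones (8.21 to 9.31). Larger sets contain more regions of any kind, so the level of these shares also reflects the sizes of the E60 and E80 sets.

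The E60 and E80 sets were nearly equal in size, so regions called in exactly 1 of them are less touched by that limit. Of the 111 such E50-only regions, 67 were at E60, a share of 60.4% (50.6 to 69.5). Of the 1124 such E85-only regions, 403 were at E60, a share of 35.9% (33.0 to 38.7). The intervals do not overlap, and each set was shared more often with the culture nearer in age. The share was 41.0% in regions called at both E50 and E85 (37.1 to 45.0) and 54.8% in regions called at neither (54.1 to 55.4). The interval of the E50-only share holds the latter value, and that of the E85-only share overlaps the interval of the both-called regions. With unbroken numbering the E50-only and E85-only shares were 67.7% (44 of 65, 54.9 to 78.8) and 35.8% (32.7 to 38.9). At promoters alone the E50-only share was 38.5%, or 5 of 13, and in regions without lifted peaks it was 52.2%. Lifted peaks are peaks of other sets, which the labels do not define, that the authors merged with those of the stages.

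**Figure D2:**
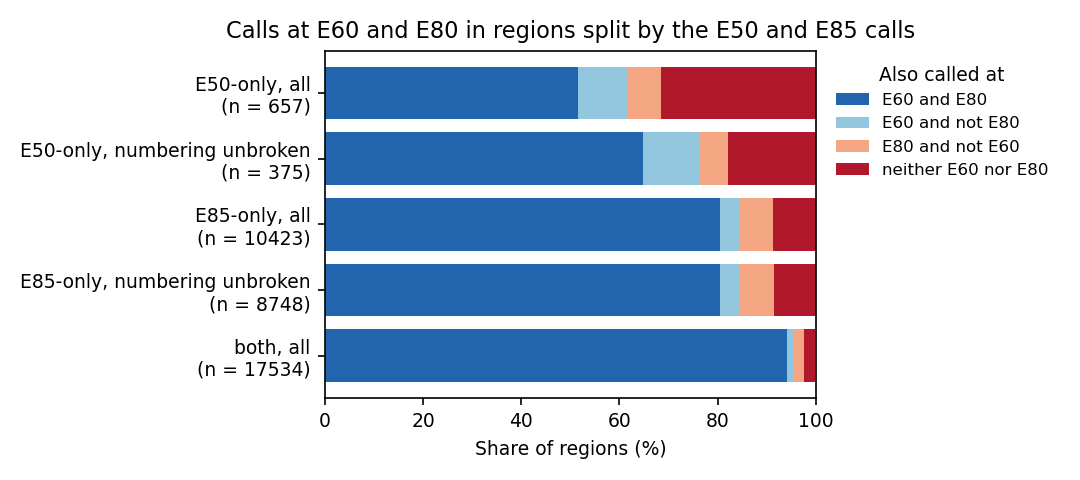
Share of regions (%, x axis) by their calls at E60 and E80, for the E50-only, E85-only and both-called sets, all or with unbroken numbering (y axis, with the number of regions). The part called at neither E60 nor E80 is 31.5% of all E50-only and 8.75% of all E85-only regions, and among E50-only regions the part at E60 and not E80 exceeds its reverse.

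Few regions belonged to a single culture. With unbroken numbering at all 3 other stages, 52 regions were called at E50 alone (0.286% of its set) and 553 at E85 alone (1.98% of its set). Before that restriction the counts were 207 and 912. The widest of the 52 lay on an exon of the uncharacterised gene LOC114671729 (chr13:66859524-66860634), on a UTR exon of SLC24A4 (chr7:154650249-154651297), in an intergenic stretch of chromosome 6 (chr6:67083046-67083801), on a coding exon of PHF2 (chr15:108634487-108635154) and in an intron of NRP2 (chr12:93160470-93161130). PHF2 encodes a histone demethylase, and NRP2 a receptor for semaphorins. The widest of the 553 were an intergenic region of chromosome 7 (chr7:144572890-144574655), one 8649 bp from the nearest start, that of SLC47A2 (chr16:19197816-19199359), a promoter region of the kinase gene PTK2B (chr8:27592762-27594178), an intron of SPTBN1 (chr13:54008431-54009820) and a region 129630 bp from NPVF (chr3:89770704-89772006). Without the restriction, the widest E50-alone regions lay at RAB3GAP2, NINJ1, THAP7, ZFP82 and LOC114672234. Their widths ran from 2366 to 7874 bp, and all 5 had absent numbers at each of the other stages. The widest E85-alone ones, of 2142 to 11840 bp, lay at LOC106999583, LHFPL3, TNK2, ARHGEF17 and KLHL22, and all 5 had absent numbers at E60 and E80.

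The E50-only and E85-only sets held fewer promoters than the both-called regions, of which 48.9% were promoters. Promoters made 24.4% of E50-only and 22.7% of E85-only regions. With unbroken numbering the E50-only share was 9.33% (6.59 to 12.7) and the E85-only share 21.2% (20.3 to 22.0), intervals that do not overlap. They did not overlap in 2 other settings either. In regions with a call at E60 or E80 the shares were 18.9% (15.4 to 22.8) and 23.8% (22.9 to 24.6), and in regions without lifted peaks, in the other direction, 14.6% (10.0 to 20.4) and 8.84% (7.83 to 9.93). Which set held more promoters thus depended on the regions taken. Introns held 40.5% and intergenic stretches 42.4% of the E50-only regions with unbroken numbering. Distal E50-only regions of that kind had a median width of 578 bp and a median GC content of 49.2%. In the E85-only ones the medians were 440 bp and 50.4%, and in the both-called ones 718 bp and 50.8%.

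Distal regions of the 2 sets differed in some motifs. The letters of 28 motifs were searched on both strands within 150 bp of the centre, and 6 had shares whose intervals did not overlap between all 497 E50-only and 8056 E85-only distal regions. The E-box CAGCTG stood in 32.2% of the E50-only regions (28.1 to 36.5) and 24.6% of the E85-only regions (23.7 to 25.6). In both-called distal regions it stood in 26.4%, or in 26.2% when these were weighted to the GC content of the E50-only set. A second E-box searched, CAGATG, had overlapping intervals, at 23.3% (19.7 to 27.3) and 21.5% (20.6 to 22.4). In the motif shares, E-box without letters means CAGCTG. The CTCF motif stood in 10.5% of the E85-only (9.86 to 11.2), 4.43% of the E50-only (2.79 to 6.63) and 5.72% of the both-called regions, 5.41% when weighted to the GC content of the E85-only set. The AP-1 motif was in 23.0% of E85-only regions (22.0 to 23.9), close to the 23.7% of both-called regions, and in 16.3% of E50-only regions (13.2 to 19.8).

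The RFX motif GTTGCCAT was in 3.42% of E50-only (2.00 to 5.42) and 1.54% of E85-only regions (1.28 to 1.83), and the interval of the former holds the 2.88% of both-called ones. The T-box motif AGGTGTG was in 1.81% of E50-only and 4.11% of E85-only regions. YY1 (ATGGCGG), which shares 5 letters with the reverse of the RFX motif, was in 0.201% of E50-only regions, a single one, and in 1.46% of E85-only regions. The other 22 motifs had overlapping intervals, which does not show equal shares. Over all autosomal stage regions, promoters included, the E-box was in 24.4%, AP-1 in 26.7%, CTCF in 5.51%, RFX in 1.81%, T-box in 3.49% and YY1 in 2.82%. Among the 53687 distal stage regions alone, AP-1 was in 32.5% (32.1 to 32.9), above its share in both sets. A match to a few letters does not show that a protein was bound.

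Restricting the distal regions to unbroken numbering, a filter chosen after the data were seen, left 340 E50-only and 6896 E85-only regions. The E-box, CTCF, AP-1, RFX and YY1 shares stayed apart in the same direction, with the E-box at 34.4% against 24.4% and CTCF at 2.94% against 10.4%. T-box intervals then overlapped. The GATA motif, searched as AGATAA, and the KLF/SP motif had intervals apart under this filter alone. GATA was in 11.8% of E50-only and 7.79% of E85-only regions, and over all distal members in 10.5% (7.91 to 13.5) and 7.80% (7.22 to 8.40). KLF/SP was lower in E50-only regions under the filter, at 10.6% against 15.5%, and over all distal members it stood the other way, at 17.3% (14.1 to 20.9) against 16.1% (15.3 to 16.9).

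To compare regions with like support elsewhere, distal regions called at both E60 and E80 were split by their E50 and E85 calls. CTCF was in 12.6% of 6196 E85-only regions (11.8 to 13.4), against 6.02% of 8159 both-called ones (5.51 to 6.56), 6.87% of 17214 called at neither (6.49 to 7.25) and 3.37% of 267 E50-only ones (9 regions, 1.55 to 6.30). The E-box CAGCTG was in 36.3% of the E50-only regions (30.6 to 42.4), and in 24.3% to 26.4% of the other 3 classes. CAGATG had overlapping intervals in the E50-only and E85-only regions, at 24.7% and 21.9%. AP-1 had overlapping intervals here, at 21.3% and 25.3%, and both lay below the 40.2% of regions called at neither E50 nor E85. GATA, at 12.4% (8.66 to 16.9) against 7.99% (7.33 to 8.69), and KLF/SP, at 14.2% against 18.2%, overlapped too. Both were apart with unbroken numbering, at 14.0% against 7.90% and at 9.81% against 17.5%.

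The RFX shares in these regions, 4 of 267 (1.50%, 0.410 to 3.79) and 1.44%, had overlapping intervals. Of the distal regions with unbroken numbering that lacked a call at E60 or E80, the RFX motif was in 12 of 126 E50-only ones (9.52%, 5.02 to 16.0), against 1.96% of 1579 E85-only ones (1.34 to 2.78).

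**Figure D3:**
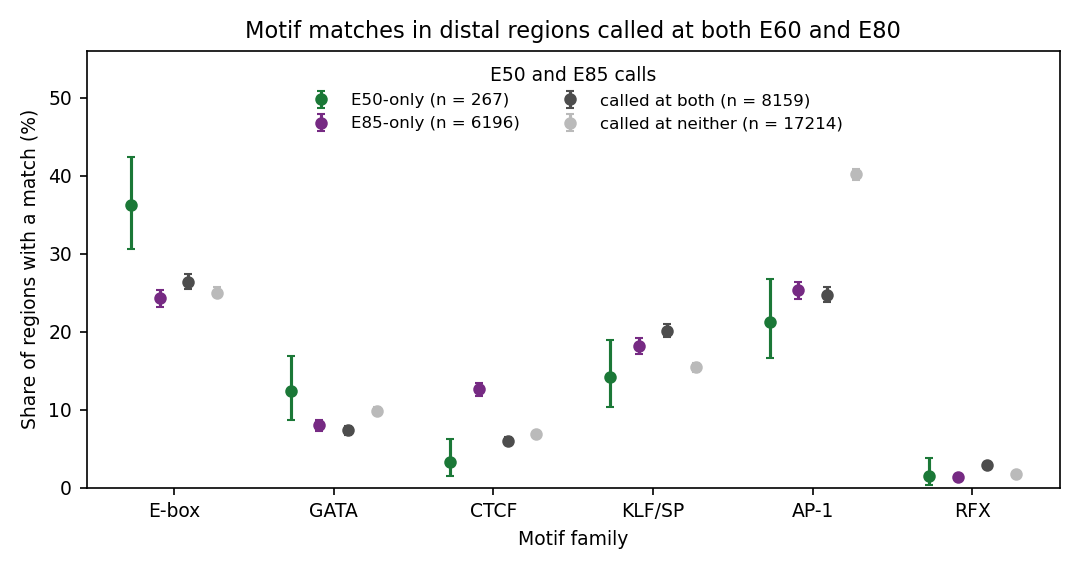
Share of distal regions with a motif match (%, y axis), for 6 motif families (x axis), in regions that were all called at E60 and E80 and are split by their E50 and E85 calls, whatever their numbering, with exact 95% intervals. The share of the E-box CAGCTG is highest in E50-only regions (36.3%) and the CTCF share in E85-only regions (12.6%). The intervals of both sets overlap for GATA, KLF/SP, AP-1 and RFX.

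The regions that held no lifted peak, here with promoters included, were 198 E50-only and 2897 E85-only ones. Among them, the E-box shares of 25.8% (19.8 to 32.4) and 22.2% (20.7 to 23.7) overlapped. The CTCF shares of 4.55% (2.10 to 8.45) and 6.39% (5.52 to 7.34) did too. AP-1 remained apart there, at 17.2% (12.2 to 23.2) and 28.0% (26.4 to 29.7), as did RFX, at 4.55% and 1.42%. The part that the merged peaks of other sets have in the motif shares was not tested further.

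By gene, 131 of 19839 protein-coding autosomal genes had a promoter called at E50 and not at E85, or 0.660%, and 1849 had the reverse, or 9.32%. Another 8967 (45.2%) had both calls. With unbroken numbering at the promoter the counts were 22 (0.111%) and 1391 (7.01%). In bulk data, fewer cells with an open promoter and a less open promoter in each cell cannot be told apart. Of the 22 genes, 20 also had the promoter called at both E60 and E80, FEZF2 at E60 alone and CYP4F12 at neither. Both E60 and E80 had the call at 1354 of the 1391 promoters (97.3%, 96.4 to 98.1). This is near the share among promoters called at both E50 and E85, 8780 of 8967 or 97.9% (97.6 to 98.2). Most promoters of these genes were thus absent in 1 culture and called in the other 3.

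FEZF2 and GSX2 were the listed transcription factor genes on the E50 side. FEZF2, which specifies deep-layer projection neurons, had its promoter region (chr2:118537877-118539754, over the first exon) called at E50 and E60 and not at E80 or E85. Its locus, the gene body and 5000 bp upstream, held 3 regions in the E60 culture, the E50-only region among them, and 0 regions at both later stages. No number was missing beside it at E80 or E85. GSX2, a homeobox factor of ventral forebrain progenitors, had its promoter region (chr5:79537302-79538916) called at E50, E60 and E80 and not at E85. Its locus held 3 regions at E60 and 1 at E80. SP9, on no list, encodes a zinc finger factor of ventral forebrain progenitors and interneurons, and its promoter (chr12:61430622-61431297) was likewise called at E50, E60 and E80 and not at E85.

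The other genes with such promoters and unbroken numbering had varied roles. Extracellular matrix enzymes were among them, with CHSY3, a chondroitin sulfate synthase, and HAS2, a hyaluronan synthase. MDGA2, NXPH1 and PRMT8 encode an adhesion protein of synapses, a ligand of neurexins and a neuronal arginine methyltransferase. Others were ATP6V0A4, CYP4F12, DDX43, GNG11, GPR19, HEPN1, KLHDC7A, KSR2, LOC114678781, MAMU-A3, OXCT1, SIX2 and TXLNB. MAMU-A3 and CYP4F12 belong to families of near-identical genes, where reads may be placed on the wrong copy. Apart from FEZF2, GSX2 and SP9, these genes are named for their place among the 22, not for their roles.

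Of 202 genes on 21 lists, 198 were found in the annotation, and 20 of them (10.1%) had a promoter called at E85 and not at E50, near the 9.32% of all genes. All 20 promoters were called at E60 and E80 too, near the 95.6% of all such promoters (1767 of 1849). E50, which had the smallest set, was thus the culture without the call. The 20 promoters belonged to genes known for early and for late steps of cortex development. HMGA2 and IGF2BP3, known for early progenitors, were among them, and their loci held 4 and 3 other regions called at both stages. So were the upper-layer neuron genes CUX1, RORB and UNC5D, with 4 of 8 CUX1 regions E85-only. EMX1 of the dorsal telencephalon, EOMES of intermediate progenitors and MOXD1 of outer radial glia had the same pattern. FOXP2 of deep-layer neurons, CD44 and the oligodendrocyte lineage factor OLIG1 followed it as well.

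The group also held RSPO2 and MSX1 of the cortical hem, COL1A1 and FOXC1 of mesenchyme, the AP-1 gene BATF3, TEAD2 of the Hippo pathway and the proliferation gene MKI67. Beside FOXC1 an E50 number was missing. On the E50 side stood 3 listed genes (1.52%, against 0.660% of all genes): FEZF2, GSX2 and APOE. The lipoprotein gene APOE is a marker of astrocytes, and beside its region (chr19:44944313-44945061) 1 E85 number was missing.

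**Figure D4:**
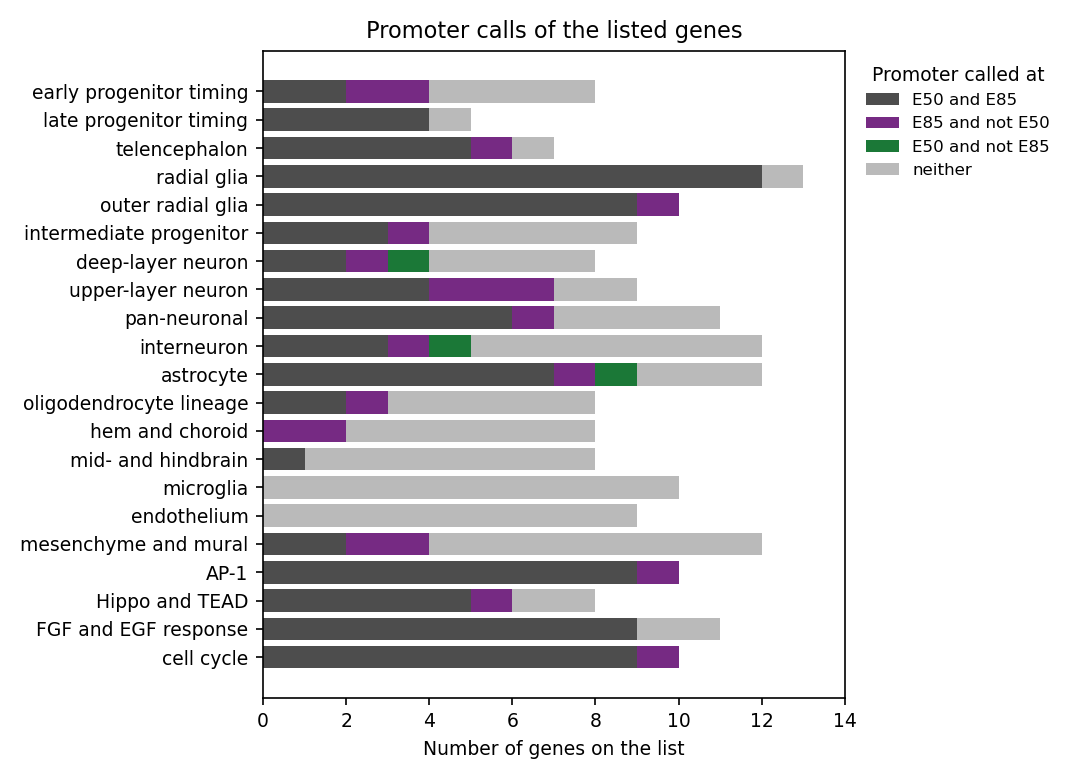
Number of genes (x axis) on each of 21 lists (y axis), split by whether the promoter was called at E50 and E85, at 1 of them or at neither. Green segments are the 3 genes with an E50 call alone of the pair, purple segments the 20 with an E85 call, and microglia and endothelium lists hold none with either call.

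Over all protein-coding genes, 45.2% of promoters were called at both stages and 44.8% at neither. Promoters of 12 of 13 radial glia genes and 9 of 10 outer radial glia genes were called at both stages. Of the 7 telencephalon genes, 5 were called at both. No promoter of 10 microglia or 9 endothelial genes was called at either stage, and of 8 mid- and hindbrain genes 1 was called at both. Of 12 mesenchyme and mural genes, 2 promoters were called at both stages and COL1A1 and FOXC1 at E85 alone of the pair. The part of such cells in the comparison was not tested.

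Counting promoters and all other regions, 12 of the 198 listed loci held an E50-only region (6.06%, against 2.28% of all 19839 loci) and 76 an E85-only region (38.4%, against 24.5%). Of all 19839 loci, only 12898 held any region called at E50 or E85. The listed loci were not matched to the others by regions per locus, so the higher shares do not show an excess on the lists. In 9 of the 12 the E50-only region had unbroken numbering. Beside FEZF2 and GSX2, these 9 included IGF2BP2 and NR6A1 of early progenitors (introns, chr2:91134958-91135509 and chr15:16013758-16014402). NR6A1 also held 3 E85-only regions and IGF2BP2 held 1. The hedgehog effector gene GLI3 held 1 E50-only region 948 bp from a start (chr3:73060242-73060770) against 5 E85-only ones, and NOTCH1 held 1, on a coding exon, against 1. INSM1, a zinc finger factor gene of intermediate progenitors, had its single region called at E50 or E85 at 4126 bp from the start (chr10:46145921-46146978), and it was E50-only. PRRX1 held 1 in an intron against 1 E85-only region, and RBFOX1 held 1 in an intron against 3 E85-only and 2 both-called regions. The 2 E50-only regions of GFAP, which also held 2 E85-only ones, and the one of AURKB had missing E85 numbers beside them, as had that of APOE.

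Over all protein-coding loci, 31.1% of the regions called at E50 or E85 were E85-only. The lists ran from 7.69% for cell cycle genes (1 of 13) to 70.0% for hem and choroid genes (7 of 10), with 54.5% for upper-layer neurons (12 of 22) and 25.5% for radial glia. Few regions stand behind each share, and no list was tested.

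At least 2 E85-only regions lay at 1377 of the 4864 loci that held any (28.3%), with 15 at most, and at least 2 E50-only regions at 18 of 453 (3.97%), with 3 at most. The E85-only set is 15.9 times as large, so more loci with several are to be found from that alone. KAZN, which encodes a protein of cell junctions, had 15 E85-only regions, 9 called at both and none E50-only (chr1:209793901-211030724). GSE1, a gene of a chromatin corepressor, had 13 E85-only of 28 regions. PRDM16, a chromatin regulator of radial glia, had 11 E85-only regions against 1 E50-only region, beside which an E85 number was missing. DAB2IP, a Ras GTPase-activating protein gene, had 9 E85-only of 10 regions, and all 9 were called at E60 and E80 as well. MYLK, the gene of myosin light chain kinase, had 8 of 9.

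KIAA1217, ZBTB7C and AKAP6 had 10 each, and PDE4D and PRKAG2 had 8 each. ABR had 10 and PITPNC1 had 8, but at both only 2 had unbroken E50 numbering. FYN, TRAPPC9, IQSEC1 and DENND1A also had 8 and the uncharacterised LOC710293 had 9. These 5 fall outside the naming rule and were named after their values were seen. Among them, TRAPPC9 and LOC710293 had only 2 with unbroken E50 numbering, IQSEC1 and DENND1A had 6 each, and FYN had all 8. At all 12 loci the E60 and E80 cultures had at least as many regions as E85. Long genes hold more regions of every kind, so these counts do not rank loci by change.

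**Figure D5:**
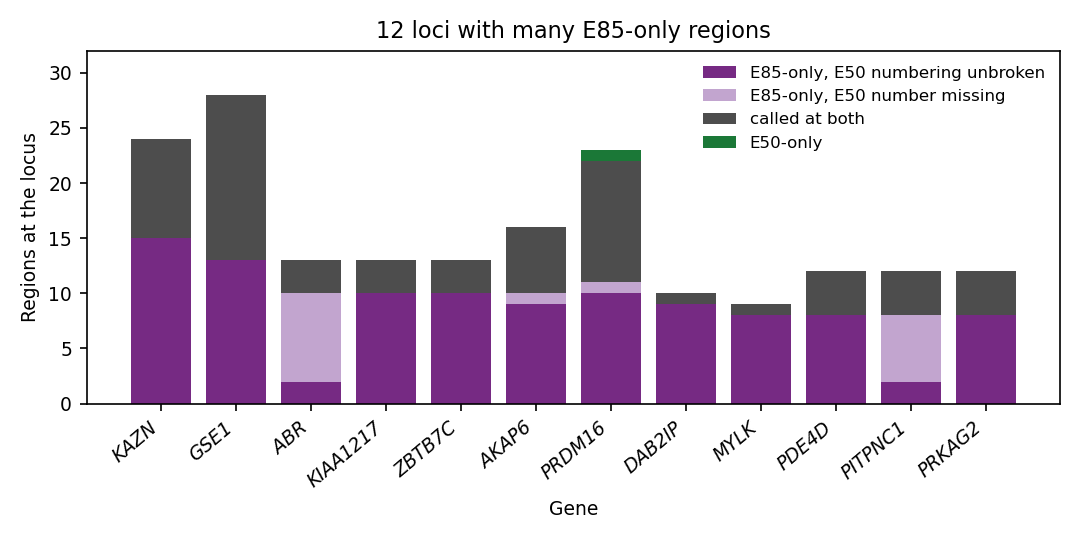
Number of regions called at E50 or E85 (y axis) at 12 loci with many E85-only regions (x axis), those with the largest excess among genes with a named symbol and, at 8 regions, the fewest both-called ones, split by call and by whether E50 numbering was unbroken. KAZN has 15 E85-only regions, and at ABR and PITPNC1 most have a missing E50 number.

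On the E50 side the largest excess was 2 regions. CHSY3 (chr6:127367069-127653901) had its promoter and an intron region called at E50, E60 and E80 and no region at E85, with unbroken numbering. DENND5A and KIF26A also had 2 each, but E85 numbers were missing beside them. AIG1, ALOX5AP, AP5Z1, APOE, C11H12orf57, C16H17orf53 and C16H17orf67 had 1 each. Of these 7, only ALOX5AP had unbroken E85 numbering.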

How the data were processed

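At each stage, 2 technical libraries of 1 culture were grouped by the labels. The authors deposited 1 table of merged regions with the peak names of each, and these names, which are no measured quantity, were the only values used (unit: other). Per the submitters' processing notes, the tools were Bowtie2 2.5.1, SAMtools 1.15 and cutadapt 4.4, with the build rheMac10. The filter, the threshold, any pooling and the peak caller were not given in the sources used here. A further 8 value columns carry no names and were not used, so depth is unknown here.

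A region counted as called at a stage when it held at least 1 peak of it. Gene models were those of NCBI for Mmul_10, the assembly of rheMac10. Coordinates are 1-based. GC weighting used bins of 5%. The members, 21 gene lists and 28 motifs were chosen with earlier results of these data known. ZBTB20, TLE4, TUBB3 and AMOTL2 were not matched by symbol. Genes were named by rule: 12 loci per side with a named symbol by the difference in counts (ties by fewer both-called regions, then alphabet), listed genes by promoter state (up to 4 per list at E85), and the 5 widest regions of a single stage. Sequences were the narrowest regions at such genes that overlap no exon and hold the motif differing most; unbroken numbering was added to that rule after the data were seen, and the CTCF regions and the stretches before FEZF2 and GSX2 were chosen after their values were seen. Genes with an E50-only promoter and unbroken numbering were named too, a choice made later. Some genes that these rules select are not reported here. The share of soft-masked bases was planned and not computed, since the reference is in upper case. Numbering, counting and weighting code was checked on made-up regions with known answers. Alternatives are given in the closing section. The software was pysam 0.24.0, SciPy 1.17.1, NumPy 2.4.6, matplotlib 3.10.9 and pandas 2.3.3 under Python 3.11.15.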

Additional observations from a re-analysis of the deposited data

How the results depend on the processing

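No paired analysis was possible because the calls are per stage and the columns of values carry no library names; for the same reason no library was left out in turn. Of 139 alternative values over 21 results, 72 stayed within the main interval or within 1.5 times the main count, and 67 moved. Single shares have no sign that could reverse, but the order of the E50-only and E85-only shares turned for promoters with unbroken numbering or a call at E60 or E80, and for the share at E60 among promoters, with the values below. Absence of a missing number was an alternative chosen after seeing the data. The E85 share of the discordant regions, 94.1%, was 94.8% in regions of at most 1 kb, 93.6% without lifted peaks, 95.5% with and 81.5% without a call at E60 or E80, and 95.9% with unbroken numbering. The share called at E60 and E80 was, without lifted peaks, 34.8% for E50-only and 62.4% for E85-only regions, and 45.0% and 92.6% at promoters. It was 77.6% for E85-only regions of at most 1 kb, 76.9% for distal ones and 64.8% for E50-only regions with unbroken numbering. Of regions called at exactly 1 of E60 and E80, the share at E60 was 38.5% (E50-only) and 44.3% (E85-only) at promoters, and 27.9% for E85-only regions without lifted peaks.

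The promoter share was 15.2% (E50-only) and 14.7% (E85-only) in regions of at most 1 kb, 14.6% and 8.84% without lifted peaks, 18.9% and 23.8% with a call at E60 or E80, and 9.33% and 21.2% with unbroken numbering. For E85-only regions it was 20.3% with promoters of 500 bp and 26.2% with 2000 bp. Motifs with higher shares in E50-only regions numbered 2, but 1 without lifted peaks or with a window of 75 bp, 7 with unbroken numbering and 11 over whole regions, which are wider at E50. Those higher in E85-only regions numbered 3, but 1 without lifted peaks (AP-1) and 1 over whole regions (CTCF). Loci with an E50-only region numbered 453, 297 with a call at E60 or E80 and 213 with unbroken numbering. Promoters called at E50 and not E85 numbered 131, 78 with a call at E60 or E80, and 22 with unbroken numbering.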
